A study of Rattus norvegicus with 16 samples.

Results

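Spared nerve injury was compared with a sham operation in wild-type rats, using the 8 wild-type libraries of a series of 16: 4 from sham-operated rats (WT sham) and 4 from injured rats (WT SNI). All held poly(A) RNA of the dorsal horn of the lumbar spinal cord, collected 28 days after surgery. The rule that defines the 2 groups uses the labels and no measured value; it was written with earlier results of these data known. The other 8 libraries came from rats lacking LPA4, a receptor for the lipid lysophosphatidic acid, 4 of them SNI-operated; the titles of the remaining 4 give "WT" in place of an operation, and their column headers name them as sham. These KO libraries entered the model to help estimate the spread between libraries, and they are set beside the WT response at the end. The labels give no strain, sex, age, side of the cord or number of rats per library, and do not state that each library is a separate rat, so p-values measure only the spread between these libraries.

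Spared nerve injury cuts branches of the sciatic nerve and leaves another intact, and it produces lasting hypersensitivity of the hind paw. The dorsal horn of the lumbar cord receives the sensory fibres of that nerve. Its neurons relay and gate pain signals, and its microglia and astrocytes are known to react to peripheral nerve damage. The libraries are whole tissue, so a change in the number of cells of a type and a change of RNA per cell cannot be told apart.

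The count table lists 30560 Ensembl rat gene IDs without names. Of the 47357 genes in the rat reference table used here, 0 carry an Ensembl ID, so 0 IDs were paired with a symbol. The IDs are therefore described by their levels, and 4 are given by ID. The tissue could not be checked against marker genes, and no gene group or pathway is named. Sequences are not shown for the same reason. Of the 30560 IDs, 11142 had 0 counts in all 8 WT libraries and 19418 had at least 1 count. The filter on low counts passed 15237 IDs, which held 99.97% of the counts of the WT libraries.

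WT sham replicate 2 stood apart from the other 7 WT libraries. It had the lowest total, 15790243 counts, against 18200783 to 26583679 in the others. Its 100 most abundant IDs took 33.1% of its counts, against 27.4% to 29.6%. Its median correlation with the other 7 WT libraries over log2 CPM (CPM is a count scaled to the same library total in every library, after TMM) was 0.951, where the others had 0.984 to 0.987. It held the highest of the 8 values for 28.1% of the IDs tested and the lowest for another 28.1%, against 7.84% to 16.2% and 6.60% to 15.7% in the other libraries. A method that weights libraries by their agreement, limma voom with quality weights, gave it 0.194, and the other 15 libraries 0.379 to 1.87. The comparisons below are therefore given with and without this library.

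Sham and SNI libraries parted on a component other than the one that set this library apart. The first principal component of log2 CPM held 51.9% of the variance and set WT sham replicate 2, at 83.1, apart from the others, at -25.8 to 0.0312. On the second component, with 11.6% of the variance, the 4 sham libraries lay at 5.89 to 21.6 and the 4 SNI libraries at -22.3 to -6.04, without overlap. When the 7 other libraries were analysed alone, the first component held 25.2% of the variance, and sham libraries, at 8.16 to 27.0, again did not overlap with SNI libraries, at -25.3 to 0.536. The SNI libraries spread further along the second of these components, from -26.5 to 27.6, than the 3 sham libraries, from -2.14 to 7.91.

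**Figure D1:**
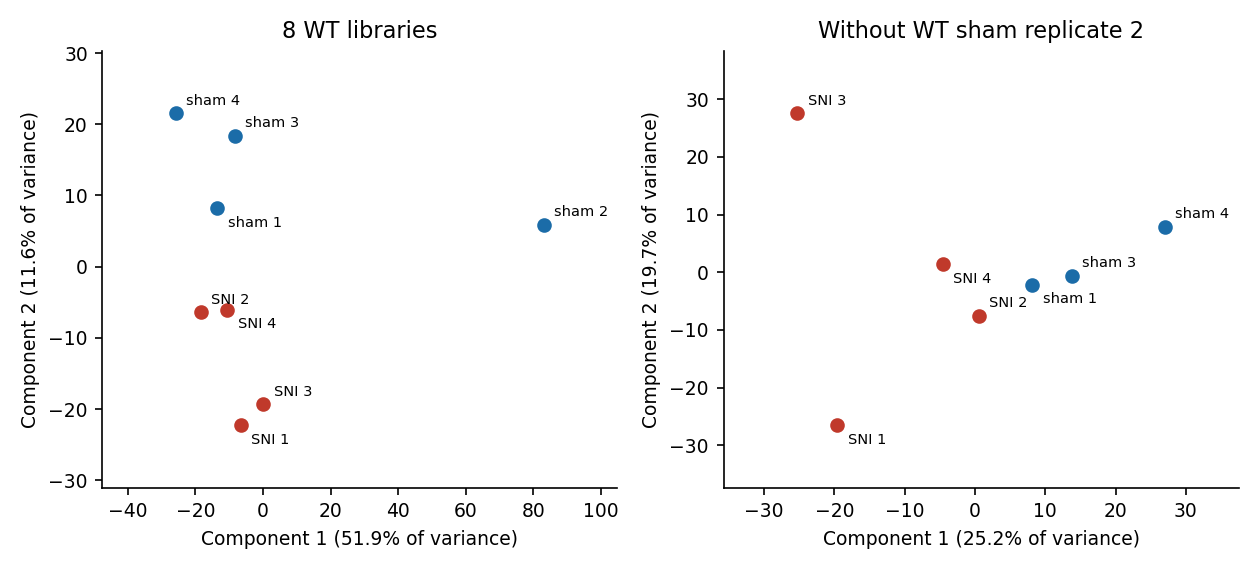
Principal components of log2 CPM, over the 8 WT libraries (left) and without WT sham replicate 2 (right); each point is 1 library, blue for sham and red for SNI, with the share of variance on each axis. On the left sham 2 lies at 83.1 on component 1 and component 2 parts sham from SNI; on the right component 1 parts them.

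A small set of IDs was called higher after SNI, and over all libraries edgeR called none lower. Over all libraries, edgeR's quasi-likelihood test called 12 of 15237 IDs (0.0788%) at a Benjamini-Hochberg adjusted p under 0.05, all 12 higher after SNI. Their log2 fold changes ran from 0.63 to 2.92 with a median of 1.102, and 10 of the 12 were over 2-fold. The median over all IDs tested was -0.00068. For each of the 12, every SNI library lay above every sham library, as was so for 1.9% of all IDs tested. Their adjusted p-values lay just under the threshold, from 0.0411 to 0.0489. No ID was called lower by edgeR (0 of 15237, 0%), with 285 lower IDs (1.87%) at an unadjusted p under 0.05 and a smallest adjusted p among lower IDs of 0.267. DESeq2 called 63 higher and 2 lower, and limma voom called 0 in either direction.

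The 12 raised IDs were mostly of low or moderate abundance. Their mean in WT sham ran from 0.145 to 115 CPM, and 8 of the 12 were under 10 CPM there. Together they summed to 246 to 292 CPM in the sham libraries and to 395 to 621 CPM in the SNI libraries. The size of the rise differed among SNI libraries in a like way across these IDs. Relative to the mean of WT sham replicates 1, 3 and 4, the median rise on the log2 scale was 1.26 in WT SNI replicate 1, 1.47 in replicate 2, 1.06 in replicate 3 and 0.75 in replicate 4. WT SNI replicate 4 was the lowest SNI library for 10 of the 12 IDs, although it was the lowest for only 22.2% of all IDs tested. WT SNI replicate 2 was the highest for 9 of the 12, against 27.1% of all IDs. Without WT SNI replicate 4 the number of called IDs was 20.

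Without WT sham replicate 2, 13 of 15340 IDs (0.0847%) were called by edgeR, again all 13 higher and 0 lower. An edgeR fit of the 7 remaining WT libraries alone called 7 higher and 1 lower. The median of the 13 was 1.19 on the log2 scale, at adjusted p-values of 0.0353 to 0.0407. Both fits called 8 IDs in common, which is 66.7% of the 12 and 61.5% of the 13. Of the 13, 11 were over 2-fold. For all 13 the 4 SNI libraries lay above the 3 sham libraries, as was so for 4.86% of all IDs tested in this comparison. The left-out library had the highest sham value for each of the 13 IDs, a median of 0.40 above the other 3 sham libraries on the log2 scale, and for each it lay below the SNI mean. The 13 were chosen in part for low values in those 3 sham libraries, so a high rank of a left-out sham library was favoured in advance. KO sham replicates 1 to 4, which were in the fit, lay above the mean of those 3 for 12, 5, 6 and 6 of the 13. Among the 12 IDs called over all libraries WT sham replicate 2 was the highest sham library for 8. Among all IDs tested, which were not chosen in this way, it was the highest for 39.9%.

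**Figure D2:**
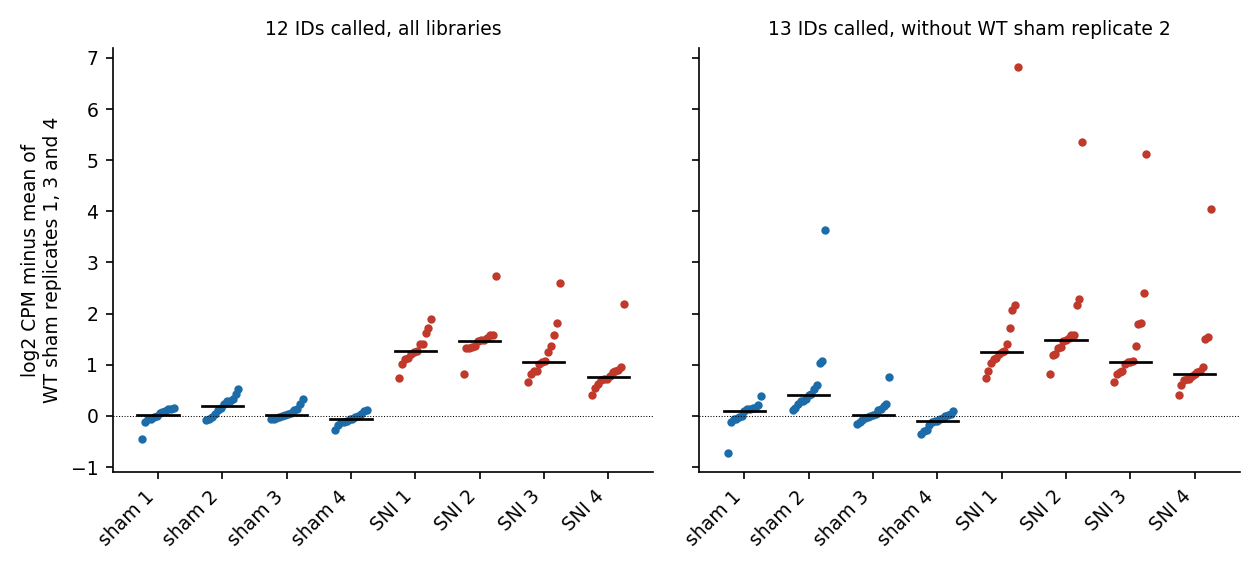
Level of the called IDs in each WT library, as log2 CPM minus the mean of WT sham replicates 1, 3 and 4; each point is 1 ID, black bars are medians, blue is sham and red is SNI. SNI medians run from 0.75 to 1.47 on the left, and sham 2 lies highest of the sham libraries for all 13 IDs on the right.

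The number of calls changed with single libraries. In the 16 fits that each left out 1 library, all 12 IDs were higher after SNI, their median log2 fold change ran from 0.97 to 1.21, and their adjusted p-values reached 0.211. Those fits reuse the libraries that chose the 12 IDs, and leaving out a KO library can hardly move a WT fold change. Direction and size were thus in part fixed in advance. The count of 12 became 0 when 1 library was left out in 11 of 16 cases. Among WT libraries these were replicates 1, 3 and 4 of sham and replicates 1, 2 and 3 of SNI. Among KO libraries they were all 4 of sham and replicate 2 of SNI. In none of those 16 fits was an ID called lower. With only the 8 WT libraries in the fit, 0 IDs were called, with 425 higher and 187 lower at an unadjusted p under 0.05.

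**Figure D3:**
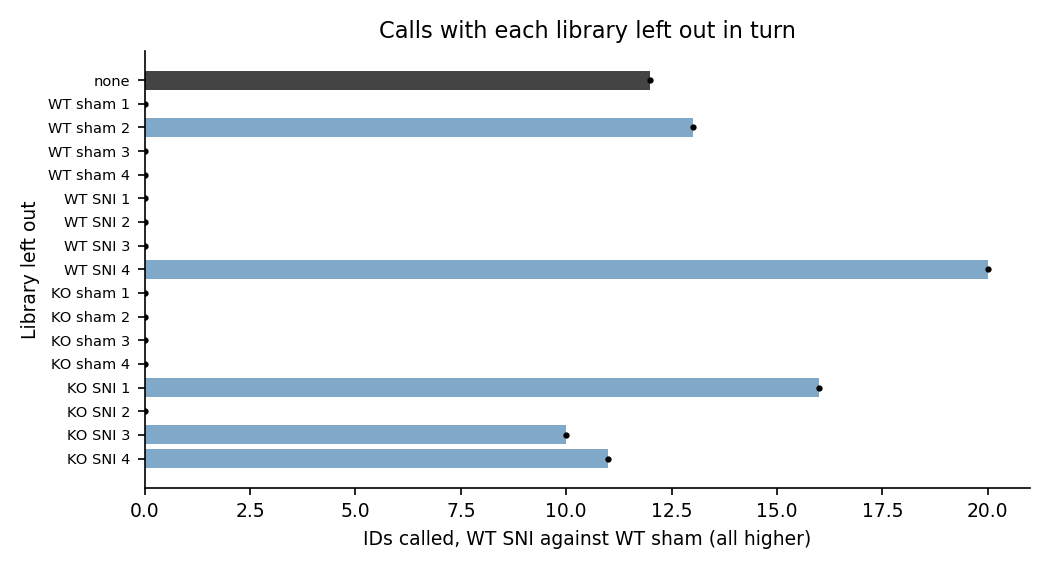
Number of IDs called by edgeR in WT SNI against WT sham when the library named on the vertical axis is left out; the top bar has none left out. The count is 0 for 11 of 16 libraries and highest, 20, without WT SNI replicate 4; all calls are higher after SNI.

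Below the threshold, the balance of higher and lower IDs changed with WT sham replicate 2. Over all libraries, 87 IDs were over 2-fold higher after SNI and 106 over 2-fold lower. Without that library, 186 were over 2-fold higher and 35 lower. Of the 106, 26 were over 2-fold lower in both fits, and of the 87, 78 were over 2-fold higher in both. WT sham replicate 2 held the highest of the 8 values for 93 of the 106 lower IDs, and its value was a median of 3.69 times the highest of the other 7 libraries. At a fold of 1.5, higher IDs outnumbered lower ones in both fits, with 404 higher and 288 lower over all libraries and 637 higher and 181 lower without the library. The middle of the distribution hardly moved: the central 50% of log2 fold changes lay between -0.08 and 0.10 over all libraries and between -0.09 and 0.12 without it. Its upper tail lengthened, from a 99th percentile of 0.84 to 1.09, and its lower tail shortened, from a 1st percentile of -0.81 to -0.61. The common biological coefficient of variation was 17.97% with the library and 14.7% without.

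**Figure D4:**
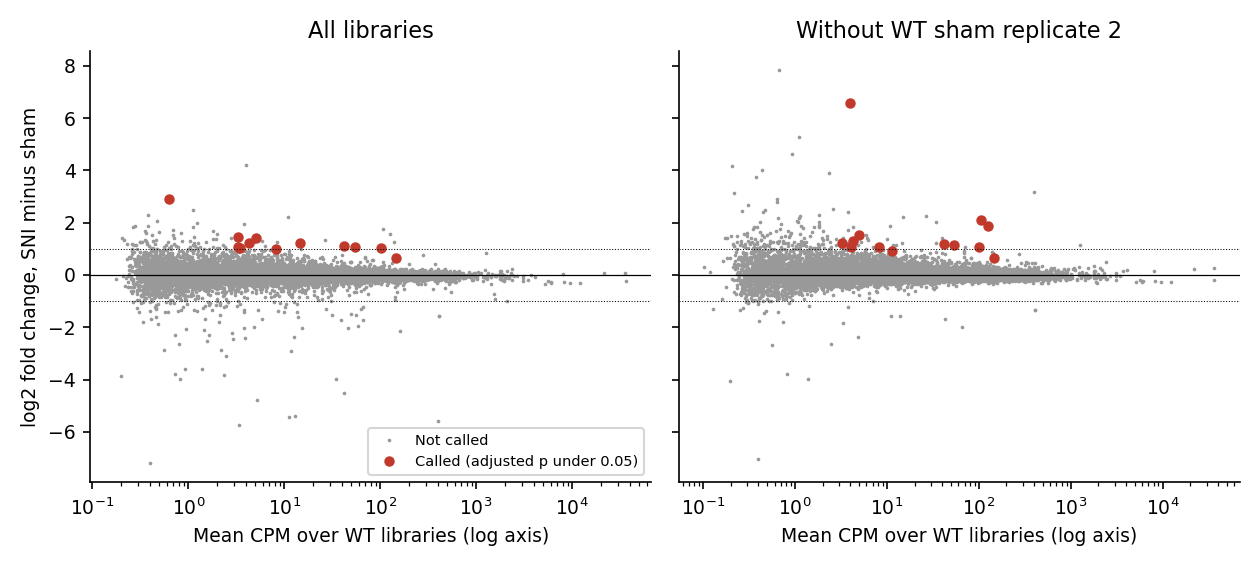
Log2 fold change of each ID (SNI minus sham) against its mean CPM on a log axis, over all libraries (left) and without WT sham replicate 2 (right); red points are called IDs, and dotted lines mark 2-fold. The left panel has 106 IDs below the lower dotted line and 87 above the upper one, the right panel 35 and 186.

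Over all libraries 732 IDs (4.8%) had an unadjusted p under 0.05, of which 447 were higher (2.93%) and 285 lower (1.87%). Without WT sham replicate 2 the number was 953 (6.21%), of which 666 were higher (4.34%) and 287 lower (1.87%). Chance alone would give a share of 0.05 on average, split between the directions. The share over all libraries was no larger than that, and the lower share was below an even part of it in both fits. The higher IDs largely recurred, with 354 in both fits, or 79.2% of the 447 and 53.2% of the 666. The lower IDs mostly did not: 84 were in both, or 29.5% of the 285 and 29.3% of the 287. Both fits hold the same libraries except WT sham replicate 2, so recurrence is no independent support. The 2 directions also differed in size and in level. Without WT sham replicate 2, the median higher ID in this class was 1.44-fold higher with a mean of 8.45 CPM, and the median lower ID was 1.19-fold lower with a mean of 28.1 CPM. The median over all IDs tested in that fit was 19.3 CPM. Since these IDs were taken at an unadjusted p, their sizes are a description of the class and not a test of any ID. Such a cut also passes only larger folds where the standard error is larger. In that fit its median was 0.21 at 1 to 10 CPM and 0.10 at 10 to 100 CPM. The differences in size and in level are therefore not separate results.

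The numbers of higher and lower IDs differed between classes of abundance. Among the 4104 IDs with a mean of 1 to 10 CPM, 302 were higher and 57 lower at an unadjusted p under 0.05 without WT sham replicate 2, against 224 and 74 over all libraries. Among the 7885 IDs at 10 to 100 CPM the numbers were 273 higher and 167 lower without it, and 162 and 141 over all libraries. Among the 1958 IDs over 100 CPM, 32 were higher and 36 lower without it, and 16 and 39 over all libraries. Among the 1290 IDs under 1 CPM, 56 were higher and 24 lower without it, and 45 and 31 over all libraries. The balance at 2-fold turned with the library in 3 of the 4 classes. At 1 to 10 CPM, 34 IDs were over 2-fold higher and 42 lower over all libraries, and 78 and 7 without it. At 10 to 100 CPM the numbers were 5 and 24, and then 15 and 4, and over 100 CPM they were 4 and 5, and then 5 and 2. Under 1 CPM they were 44 and 35, and then 73 and 17. In the fit without the library, the standard error of the log2 fold changes, as a median, decreased with abundance from 0.44 under 1 CPM to 0.21 at 1 to 10 CPM, 0.10 at 10 to 100 CPM and 0.09 above.

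Separation of the groups gave a similar order. Over all libraries, every SNI library lay above every sham library for 289 IDs (1.9%) and below for 189 (1.24%). Without WT sham replicate 2 these counts were 745 (4.86%) and 533 (3.47%), in a comparison of 4 with 3 libraries, which leaves more room for groups to part. Complete switches between 0 and expression were rare and shallow. Over all libraries 2 IDs had 0 counts in all sham libraries and at least 1 in each SNI library, with at most 6 counts over the SNI group, and 3 IDs showed the reverse, with at most 8 counts over the sham group. Without WT sham replicate 2 the numbers were 7, with at most 12 counts, and 12 for the reverse, with at most 6 counts. Losses thus outnumbered gains in both comparisons, unlike the order above.

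WT sham replicate 2 took no part in choosing the 666 higher and 287 lower IDs of the fit without it, so its levels could be set beside those of the other shams. It lay above the mean of WT sham replicates 1, 3 and 4 for 588 of the 663 higher IDs that were measured in both fits (88.7%), by a median of 0.40 on the log2 scale, where the SNI libraries were 0.52 above. It lay below that mean for 241 of the 284 lower IDs (84.9%), by a median of 0.37, where the SNI libraries were 0.25 below. These IDs were chosen in part by their values in those 3 sham libraries, so the KO sham libraries, which were not in the contrast either, are set beside it. They are no like yardstick, since they differ in genotype and their own spread helped choose the IDs. They were above the same mean for 51.9% to 85.8% of the higher IDs, with medians of 0.01 to 0.23, and below it for 60.6% to 86.6% of the lower IDs. In size, the departure of WT sham replicate 2 exceeded that of each KO sham library in both directions. IDs with a wide spread among KO sham libraries were less likely to be chosen, so that order was in part fixed in advance. By share, KO sham replicate 3 was below the mean for more of the lower IDs (86.6% against 84.9%). WT sham replicate 2 also departed further than the other WT libraries over all IDs. It had 762 IDs over 2-fold above the rest of its group and 1109 below, against at most 395 and 382. Over all IDs tested it was above the mean for 53.0%. Whether its departures and those of the injured libraries share a source was not tested.

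One ID was then taken from each fit in each direction, as the ID with the smallest p. ENSRNOG00000012749 was the first higher ID over all libraries. Its level in the sham libraries was 31.7, 40.4, 35.9 and 31.9 CPM in replicates 1 to 4, and in the SNI libraries 78.7, 92.2, 67.0 and 54.9 CPM. The groups did not overlap, and the lowest SNI value came from replicate 4. The mean rose from 34.9 ± 4.10 to 73.2 ± 15.9 CPM (SD, n = 4 each), or by 1.07 on the log2 scale (SE 0.16), at an adjusted p of 0.0411 by edgeR. It was 1.15 when WT sham replicate 2 was left out (SE 0.17, edgeR adjusted p = 0.0353). Its log2 fold change lay between 0.94 and 1.18 under 27 alternatives, while its adjusted p reached 0.226. These alternatives refit the data that chose this ID, and those that left out a KO library could hardly move its fold change. The range is therefore no test of its size. In the KO libraries it was at 27.8 to 38.0 CPM after sham and 64.0 to 91.0 CPM after SNI.

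ENSRNOG00000024899 was the first higher ID without WT sham replicate 2. It was nearly absent from 3 sham libraries, with 0, 4 and 1 counts in replicates 1, 3 and 4 (0, 0.161 and 0.0535 CPM), and had 25 counts (1.73 CPM) in replicate 2. The SNI libraries held 300, 148, 138 and 44 counts in replicates 1 to 4, which is 16.5, 5.96, 5.0 and 2.33 CPM. Every SNI value exceeded every sham value, WT sham replicate 2 included, and SNI replicate 1 was the highest library by far. The mean was 0.486 ± 0.831 CPM in the 4 sham libraries and 7.45 ± 6.23 CPM in SNI (SD, n = 4 each), and 0.0717 ± 0.0823 CPM in the 3 sham libraries (SD, n = 3). The log2 fold change was 4.19 over all libraries (SE 0.89, edgeR adjusted p = 0.124), which was not called, and 6.58 without WT sham replicate 2 (SE 0.93, edgeR adjusted p = 0.0353), which was. The second value rests on 5 counts in the 3 sham libraries together. The KO libraries held 0.0800 to 0.643 CPM after sham and 2.43 to 6.82 CPM after SNI.

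The lower IDs chosen in the same way were not called by edgeR in either fit. ENSRNOG00000001915 had the smallest p among lower IDs over all libraries. It was at 3.33, 292, 26.3 and 4.44 CPM in sham replicates 1 to 4 and at 3.74, 2.33, 2.86 and 5.24 CPM in SNI replicates 1 to 4. WT sham replicate 2 was far above all other libraries, and sham replicates 1 and 4 lay within the range of the SNI libraries. The group means were 81.4 ± 141 and 3.55 ± 1.27 CPM (SD, n = 4 each), a log2 difference of -4.53 (SE 1.12, edgeR adjusted p = 0.267). It was -1.70 when WT sham replicate 2 was left out (SE 0.60, edgeR adjusted p = 0.636). DESeq2 called this ID lower over all libraries (DESeq2 adjusted p = 0.00326) and not without WT sham replicate 2 (DESeq2 adjusted p = 0.505). Both IDs that DESeq2 called lower over all libraries had in WT sham replicate 2 more than 10 times the highest value of the other 7 libraries. In the KO libraries ENSRNOG00000001915 was at 3.72 to 6.73 CPM after sham (mean 4.90) and 3.75 to 13.9 CPM after SNI (mean 7.03).

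ENSRNOG00000024437 had the smallest p among lower IDs without WT sham replicate 2. Its sham values were 102, 104 and 98.9 CPM in replicates 1, 3 and 4, and 53.0 CPM in replicate 2. The SNI values were 75.6, 91.1, 77.5 and 78.9 CPM in replicates 1 to 4. The 3 sham libraries lay above all SNI libraries, and WT sham replicate 2 lay below them all. Against the 3 sham libraries, at 102 ± 2.48 CPM (SD, n = 3), SNI was at 80.8 ± 7.01 CPM (SD, n = 4), a log2 difference of -0.33 (SE 0.08, edgeR adjusted p = 0.199). DESeq2 called it in that comparison (DESeq2 adjusted p = 0.0218), as its 1 lower ID. Over all libraries the log2 fold change was -0.15 (SE 0.15, edgeR adjusted p = 0.998). In the KO libraries it was at 83.7 to 96.6 CPM after sham and 81.2 to 96.7 CPM after SNI, with full overlap.

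**Figure D5:**
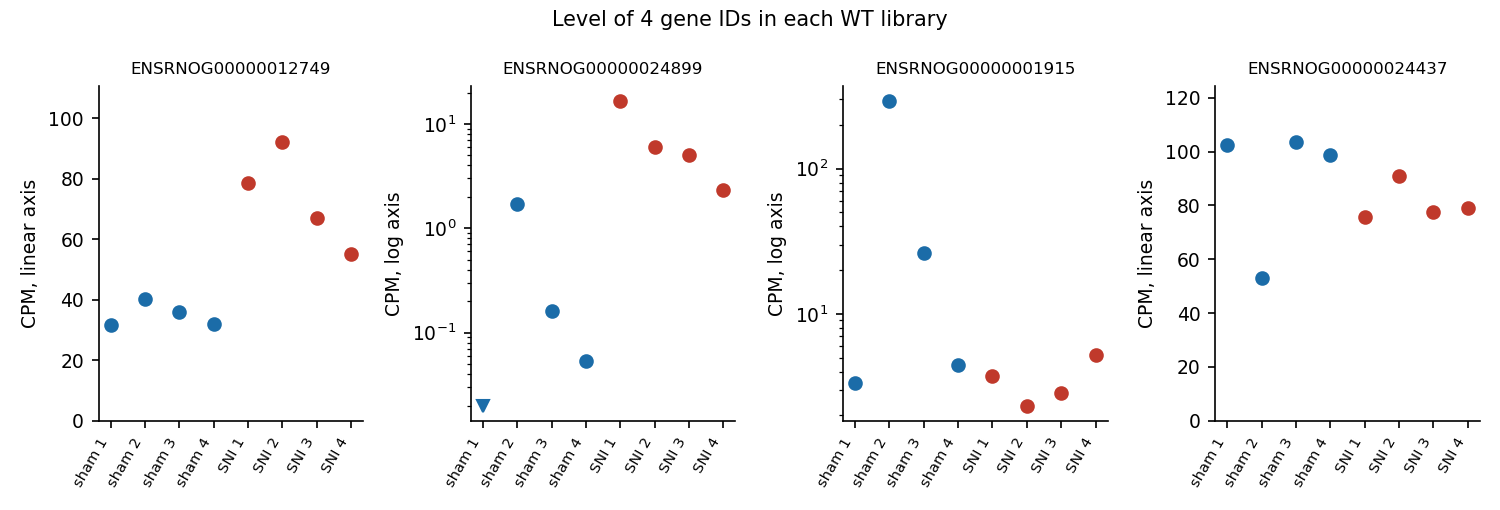
CPM of 4 IDs in each WT library (blue sham, red SNI); the outer panels have a linear axis from 0 and the middle ones a log axis, where a triangle at 0.02 CPM stands for 0 counts. SNI lies above sham in the left 2 panels, and sham 2 sits apart in the right 3, at 1.73, 292 and 53.0 CPM.

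The response in WT was set against that in KO rats by the test of the difference itself. Of 15237 IDs, 0 (0%) were called by edgeR for a different SNI effect (smallest adjusted p = 0.978), with 259 larger and 209 smaller in KO at an unadjusted p under 0.05. Without WT sham replicate 2 the balance turned, with 0 called by edgeR (smallest adjusted p = 0.998) and 156 larger and 245 smaller at that p. In each fit these were fewer IDs than chance alone would give on average. Their balance is therefore no result about the genotypes. Over all libraries DESeq2 called 1 and limma voom 0. All 12 IDs called in WT had higher means after SNI in KO as well, though the same share over all IDs tested was not computed. The KO libraries also helped set the spread behind those 12 calls. Their differences in effect, KO minus WT, ran from -0.53 to 0.56 on the log2 scale. For 1 of the 12 the unadjusted edgeR p of that difference was under 0.05. For ENSRNOG00000012749 the difference was 0.25 (SE 0.22), and for ENSRNOG00000024899 it was -0.13 (SE 1.39). For ENSRNOG00000001915 it was 5.04 (SE 1.51, edgeR adjusted p = 0.978), a value that contains WT sham replicate 2. For ENSRNOG00000024437 it was 0.18 (SE 0.22).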

How the data were processed

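The authors' deposited table gives expected counts (reads per Ensembl gene ID as estimated, not always whole) in 16 libraries; 96.4% of the values were whole within 1e-9, and the columns had different totals. Tools listed, with no role or order, per the submitters' processing notes are RSEM 1.3.1, STAR 2.7.9a and fastp 0.22.0, and the build is mRatBN7.2; libraries came from a stranded TruSeq mRNA kit, per the labels' protocols. Annotation, strand setting and filters were not given in the sources used here. Reads shared by near-identical genes are divided by estimate.

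Counts were rounded, filtered with filterByExpr (minimum count 10) and scaled by TMM in edgeR 4.0.16 (R 4.3.3). A single quasi-likelihood fit of all 16 libraries had 1 mean for each group, and p-values were adjusted over all IDs tested (Benjamini-Hochberg, threshold 0.05). DESeq2 1.42.0 and limma 3.58.1 were alternatives. Log2 CPM used a prior count of 2. The 28 pairs of WT libraries gave chi-square values of 11.9 to 83.1 for each degree of freedom, above sampling noise, and each library counted once. The fit was tested on simulated data.

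The rule for genes to name, and 40 gene lists, needed symbols; with none matched, the fallback of at most 2 higher and 2 lower IDs was used, taking the smallest p per direction and fit after values were seen. The members and lists were chosen with earlier results of these data known.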

Additional observations from a re-analysis of the deposited data

Results flagged for a closer look

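Each set of 4 libraries was checked for a value far from the others, for library measures and for the 4 IDs. One was found in 2 of 14 sets of library measures (by chance, about 1 set in 20) and in 3 of 8 sets of ID levels, all in WT sham replicate 2. The IDs had been chosen by their p-values with or without this library, so that chance rate does not apply to them. That this library stood apart was known beforehand, so the rate is no test for the library measures either. WT sham replicate 2 lay at 83.1 on the first principal component and correlated with the other 7 WT libraries at a median of 0.951. It had 1.73 CPM of ENSRNOG00000024899, 292 CPM of ENSRNOG00000001915 and 53.0 CPM of ENSRNOG00000024437, each far from the other 3 sham libraries. The sets share libraries, so these results are not independent of each other.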

How the results depend on the processing

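The count of 12 called IDs was 65 with DESeq2, 0 with limma voom, 24 with quality weights, 7 with a mean CPM of at least 5, and 0 in the fit of the 8 WT libraries; leaving out 1 library gave 0 to 20. RLE scaling (14), a robust spread (13) and no filter (15) stayed within 1.5 times. With the replicate number as a block it was 46, and 0 with the block in the 8 WT libraries. In the WT libraries, deviations of same-numbered sham and SNI libraries correlated at -0.282 to 0.0668. Of the 4 sham libraries, 0 matched their own number best. The sham deviations were taken from a mean that holds WT sham replicate 2, and the KO libraries were not checked. This check does not settle whether the numbers pair the libraries. Without WT sham replicate 2, the count of 13 was 82 with DESeq2, 0 with limma voom, 0 with a mean CPM of at least 5, 41 with the replicate block (40 higher, 1 lower), 8 in the 7 WT libraries (7 higher, 1 lower), 33 without KO SNI replicate 1 as well, and 0 to 33 without 1 further WT library (33 without WT SNI replicate 4); these were chosen after seeing the data. The cause of these shifts was not tested. The difference in effect between genotypes called 1 ID with DESeq2 and 0 in the 16 fits that each left out 1 library. None of the 4 IDs changed direction in any other fit that tested it. At a median standard error of 0.13, small changes were not detectable.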
